A study of Mus musculus with 46 samples.

Results

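Air-exposed control mice collected 7 days after their last chamber session (Ctrl 7d, n = 6) were compared with air-exposed control mice collected 72 hours after it (Ctrl 72h, n = 6). These 12 mice were chosen by treatment and collection time alone, from 46 mice in all, and none of them had been exposed to ethanol. The tissue was BNST (bed nucleus of the stria terminalis), which belongs to the extended amygdala and takes part in stress and anxiety responses, from adult male C57BL/6J mice housed singly. RNA of each mouse was hybridized to 1 Affymetrix mouse expression array, and values are deposited log2 intensities of 45037 probesets, each a group of short probes for a transcript. All 12 mice had spent 4 cycles in air chambers, with 4 days of 16 hours per day in each cycle and 7 days between cycles, and had been injected before chamber sessions with saline and pyrazole (1 mmol/kg), which blocks alcohol dehydrogenase. Mice exposed to ethanol vapor (CIE) had received ethanol (1.6 g/kg) with the same pyrazole dose, and their 7 d (CIE 7d, n = 4) and 72 h (CIE 72h, n = 6) groups are given as a second pair at these times that shares no mouse with the air pair. Ctrl and CIE mice collected at 0 h and 8 h (n = 6 each) serve as further levels.

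The comparison asks what moves between these collection times with no ethanol vapor. Ctrl 7d mice were also older by the days between and had gone longer since chamber, handling and pyrazole, so these cannot be told apart. Pyrazole is known as an inhibitor of alcohol dehydrogenase and, in liver, as an agent that changes drug metabolising enzymes. Metallothioneins bind zinc and copper and are induced by metals, glucocorticoids and inflammation, and interferon stimulated genes follow type I interferon signalling through STAT and IRF factors. In whole tissue, fewer cells of a type and less RNA per cell cannot be told apart.

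Array medians of the 46 mice lay between 6.78 and 6.83, no value was missing, and the 12 air mice correlated between 0.985 and 0.998 with each other. Penk (enkephalin precursor), a peptide gene of the BNST that is also on the striatal marker list, was bright. It lay at 12.0 to 13.0 in Ctrl 7d mice and 12.2 to 12.6 in Ctrl 72h mice. Genes of the neighbouring lateral hypothalamus were bright as well. The mean of Hcrt (orexin precursor) and Pmch (precursor of melanin-concentrating hormone) was 9.61 to 13.68 in Ctrl 7d mice (median 11.12) and 12.87 to 14.37 in Ctrl 72h mice (median 13.43). Hcrt differed by -2.73 (SE 0.85, adjusted p = 0.0255) and Pmch by -1.38 (SE 0.48, adjusted p = 0.0466), and neither passed the threshold.

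Between Ctrl 7d and Ctrl 72h, the limma test at an adjusted p of 0.01 or less called 2323 of 45037 probesets (5.16%), of which 783 were higher (1.74%) and 1540 lower (3.42%) in Ctrl 7d. With each gene represented by its brightest probeset, 1049 of 18193 genes (5.77%) passed, 81 higher (0.445%) and 968 lower (5.32%). Changes were small. The median difference was 0.44 on the log2 scale for the genes that rose and -0.33 for those that fell, and 2 genes in each direction exceeded 2-fold. The median over all genes was -0.05, and 12344 of the 18193 genes (67.9%) lay below 0. In 1224 genes (6.73%) the ranges of the 6 Ctrl 7d and 6 Ctrl 72h mice did not overlap, 146 with Ctrl 7d higher (0.803%) and 1078 with Ctrl 7d lower (5.93%).

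Single mice carried much of these counts. Without Ctrl 72h replicate 68 the test called 315 probesets and 172 genes, without Ctrl 7d replicate 36 it called 582 and 309, and without Ctrl 7d replicate 28 it called 693 and 383. Leaving out Ctrl 7d replicate 80 gave 1056 probesets and 533 genes, Ctrl 72h replicate 44 gave 1239 and 579, replicate 34 gave 1286 and 628, and replicate 16 gave 1460 probesets. All 1049 genes kept their sign without replicate 68, with medians of 0.397 and -0.305. Of 78 named genes that passed, 22 passed in each of the 12 fits with 1 of these mice left out. They were Mt1, Mt2, Aox1, Ifit1, Usp18, Rtp4, Trim30d, Gbx1, Skor1, Dnaic2, Vit, Depdc7, Cldn5, Gabrb2, Cables1, Bag3, Hspe1, Smarce1, Acadl and Trak2, which fell, and 9630013A20Rik and Tenm3, which rose. These fits took the brightest probeset of each gene. A further probeset passed with the same sign in Hspe1, Gabrb2 and 9630013A20Rik. Those of Mt1, Rtp4, Trim30d, Skor1, Dnaic2, Cables1, Acadl and Tenm3 kept the sign without passing. Among them Skor1 (-0.06), Rtp4 (-0.025) and Acadl (-0.02) lay near 0. Further probesets of Smarce1 and Trak2, and 1 of Gabrb2, lay above 0 without passing.

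Other levels moved with the comparison. The mean of the 7 probesets of Malat1, a nuclear noncoding RNA, was 9.08 to 9.86 in Ctrl 7d mice (median 9.45) and 8.39 to 9.31 in Ctrl 72h mice (median 8.80), with replicate 68 the lowest Ctrl 72h mouse. On the first principal component of all 46 arrays, which held 27.7% of the variance, the 6 Ctrl 7d mice lay between 0.124 and 0.296 and the 6 Ctrl 72h mice between -0.251 and 0.0375, without overlap. With the Malat1 level as a covariate 12 probesets (0.0266%; 0.0111% higher and 0.0155% lower) and 5 genes (0.0275%; 0.0055% higher and 0.022% lower) were called, namely Mt1, Rida, Cryzl2 and Cldn5, which fell, and 9630013A20Rik, which rose. With the level of Hcrt and Pmch as a covariate 36 probesets and 22 genes (0.121%; 0.0055% higher and 0.115% lower) were called. The 968 genes that fell all kept their sign under both, with a median of -0.21 under the Malat1 covariate and -0.24 under that of Hcrt and Pmch. A covariate that itself differs between the times takes up a part of their difference, so the part of these levels in the counts cannot be told apart from time.

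**Figure D1:**
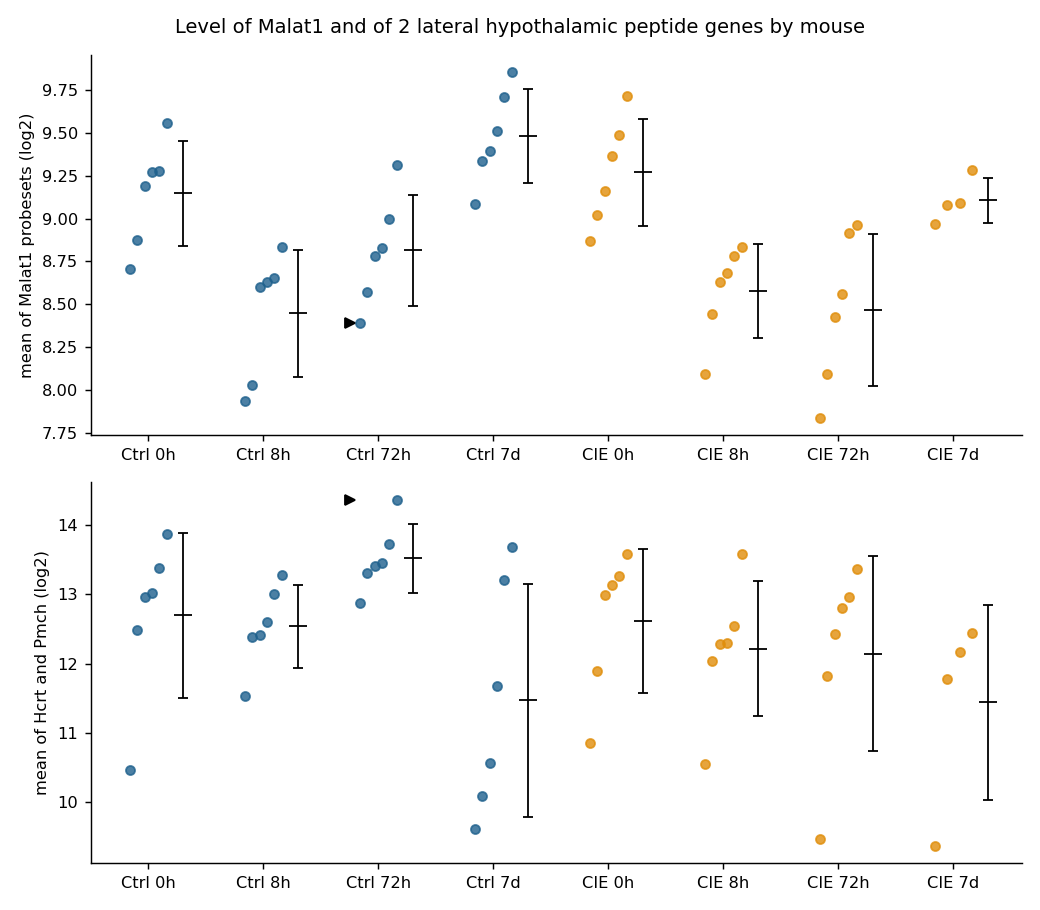
Mean log2 value of the Malat1 probesets (top) and of Hcrt and Pmch (bottom) in each mouse of the 8 groups, Ctrl in blue and CIE in orange, with bars for the mean and SD beside the points and a black arrowhead at Ctrl 72h replicate 68. Ctrl 7d mice lie at 9.08 to 9.86 for Malat1, and 4 of the 6 lie below the 12.87 that is lowest among Ctrl 72h mice for the peptide genes.

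The probesets that rose were mostly not the brightest of their genes. Of the 783 that rose, 81 (10.3%) were representative probesets, 523 (66.8%) were further, dimmer probesets of a gene and 169 (21.6%) had no gene symbol. Of the 1540 that fell, 968 (62.9%) were representative, 414 (26.9%) further probesets and 112 (7.27%) without a symbol. Further probesets rose in 3.12% of those on the array, against 0.445% of the representative ones. The largest of them, chosen after their values were seen, belonged to Atrx, a chromatin remodeller of the SWI/SNF type, where a dim probeset (mean level 7.07) rose by 1.46 (SE 0.35, adjusted p = 0.00552) and the brightest (11.27) differed by 0.06 (adjusted p = 0.366). In Akap9, a scaffold of protein kinase A at the centrosome and Golgi, the values were 1.29 (adjusted p = 0.00649) for the dim and 0.14 (adjusted p = 0.0869) for the brightest probeset. Slc1a2, the main astrocyte glutamate transporter, had 1.22 (adjusted p = 0.00468) and 0.16 (adjusted p = 0.0259). The same gene therefore gave different answers by probeset, and 14 genes had both a probeset that rose and one that fell.

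The metallothioneins Mt1 and Mt2 fell, and Mt1 shared the smallest adjusted p of all genes with Rida and Cryzl2. Mt1 was 13.07, 13.14 and 13.21 (lowest, median and highest) in Ctrl 7d mice and 13.37, 13.46 and 13.55 in Ctrl 72h mice. Its groups did not overlap, and the spread within each was small beside the gap. Mt1 fell by 0.32 (SE 0.038, 1.25-fold, adjusted p = 3.41e-06), and by 0.15 in CIE mice (adjusted p = 0.112). Mt2 ranged from 12.39 to 12.68 (median 12.55) in Ctrl 7d mice and from 12.72 to 12.95 (median 12.92) in Ctrl 72h mice, again without overlap (-0.31, SE 0.058, adjusted p = 0.0011). Over the 4 Ctrl times in order, mean Mt1 was 13.68, 13.54, 13.47 and 13.14, so that Ctrl 7d was the lowest.

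Where 5.32% of all genes fell and 0.445% rose, 4 of 18 measured genes of the metallothionein and antioxidant list fell and 1 rose. Besides both metallothioneins these were Nfe2l2 (NRF2, the factor that drives antioxidant enzymes; -0.33, SE 0.073, adjusted p = 0.0030) and Sod1 (cytosolic superoxide dismutase; -0.15, adjusted p = 0.0098). Slc7a11, the cystine transporter of glutathione synthesis, rose by 0.44 (SE 0.11, adjusted p = 0.00944) and passed in 2 of the 12 fits with 1 mouse left out, while its other probeset differed by -0.07 (adjusted p = 0.67). Mt3, the metallothionein typical of brain, had -0.03 (adjusted p = 0.847). The list as a whole had a median of -0.06, close to that of all genes. Without Ctrl 72h replicate 68, 2 members fell.

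Drug metabolising enzymes fell in 6 of 24 measured members (25%, against 5.32% of all genes), with none higher and 22 of 24 differences below 0, where 67.9% of all genes were. Aox1, an aldehyde oxidase that oxidises drugs and N-heterocycles, was 7.36, 7.60 and 7.77 in Ctrl 7d mice and 7.93, 8.13 and 8.41 in Ctrl 72h mice. The groups did not overlap and the fall was 0.57 (SE 0.087, 1.49-fold, adjusted p = 0.000141). In order of time the Ctrl means were 9.38, 9.18, 8.13 and 7.56, so Ctrl 7d was the lowest of the 4 times. CIE mice were at 7.54 ± 0.11 at 7 d (SD, n = 4) and 8.07 ± 0.13 at 72 h (SD, n = 6), a difference of -0.53 (adjusted p = 0.0151), which did not pass.

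Nqo1, a quinone reductase and a known NRF2 target, was 6.83, 6.94 and 6.98 in Ctrl 7d mice and 7.12, 7.31 and 7.64 in Ctrl 72h mice, without overlap (-0.42, SE 0.091, adjusted p = 0.00286). It differed by -0.42 in CIE mice too (adjusted p = 0.0672). Gstm1 (glutathione transferase; -0.26), Cyp26b1 (retinoic acid hydroxylase; -0.38), Cyp4f14 (fatty acid hydroxylase; -0.44) and Cyp7b1 (oxysterol hydroxylase; -0.26) were the other members that fell. Cyp2e1, the microsomal ethanol oxidising enzyme that pyrazole is known to raise in liver, ranged from 5.13 to 5.38 in Ctrl 7d mice and from 5.16 to 5.46 in Ctrl 72h mice, which overlapped (-0.06, SE 0.073, adjusted p = 0.629). The list mean lay at 8.34 to 8.46 in Ctrl 7d mice and at 8.50 to 8.70 in Ctrl 72h mice, and 1 member fell without replicate 68.

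Some enzymes outside the lists, named after their values were seen, are given as values only. They were chosen on those values, so their falls add no support to the lists. Ddo, the oxidase of D-aspartate, was 7.83, 8.24 and 8.46 in Ctrl 7d mice and 8.62, 8.83 and 8.98 in Ctrl 72h mice. It did not overlap between the times, fell by 0.66 (SE 0.096, adjusted p = 8.79e-05) and was the gene of the 1 probeset called in CIE mice, where it fell by 0.70 (SE 0.11, adjusted p = 0.00363). Rida, which clears reactive imines from amino acid breakdown, was 10.77 to 11.01 in Ctrl 7d mice and 11.27 to 11.62 in Ctrl 72h mice (-0.56, SE 0.067, adjusted p = 3.41e-06). Bdh2, a cytosolic hydroxybutyrate dehydrogenase, fell by 0.58 (SE 0.091, adjusted p = 0.000184) and had -0.57 in CIE mice.

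**Figure D2:**
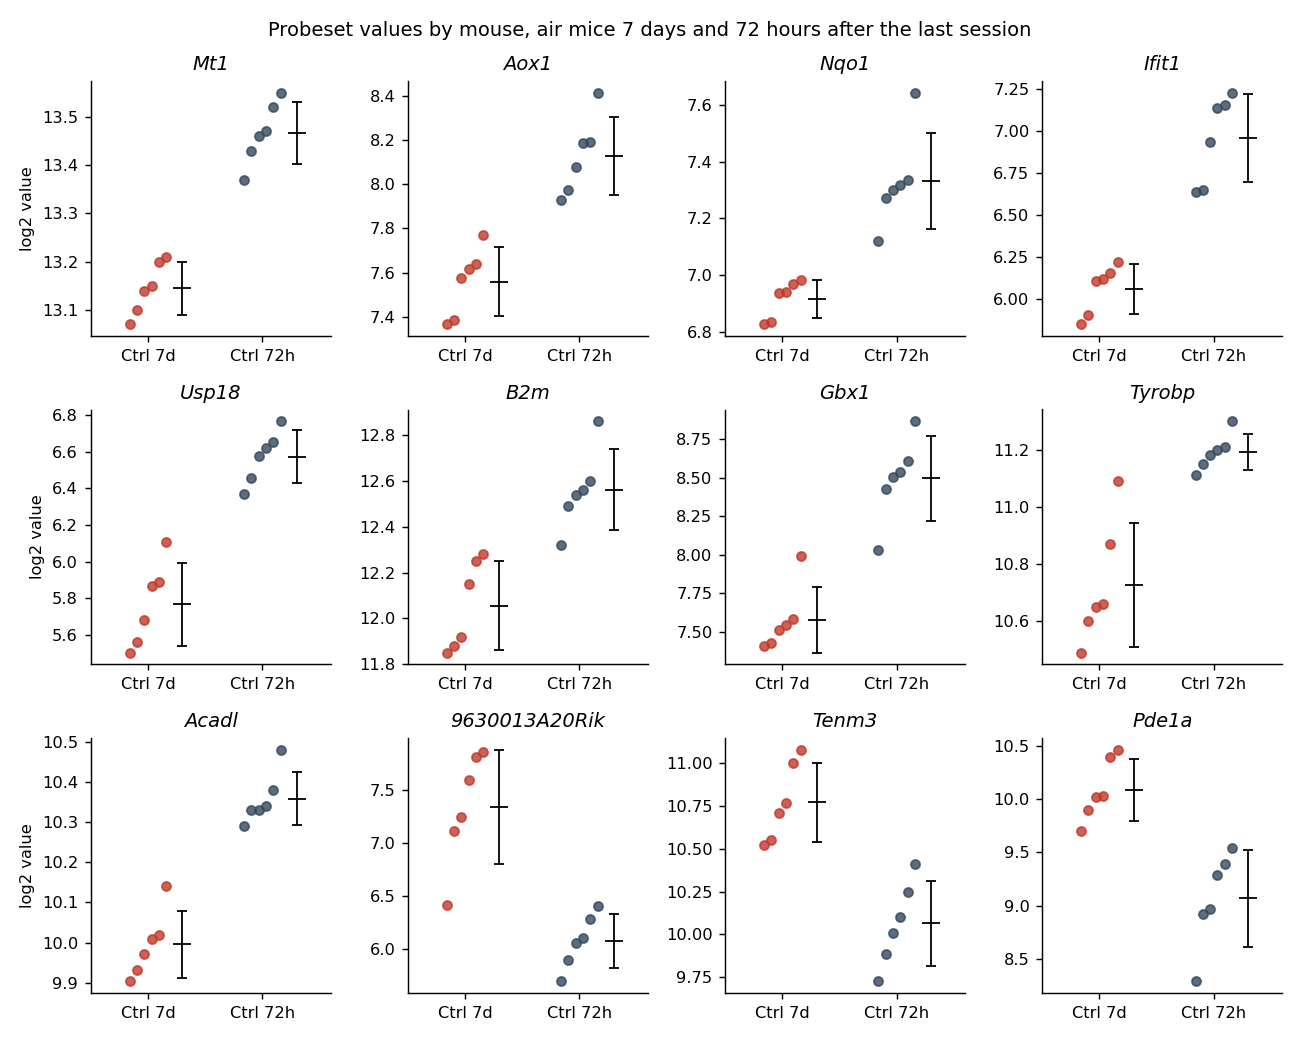
Log2 values of 12 genes in each Ctrl 7d mouse (red, left) and Ctrl 72h mouse (dark, right), with bars for the mean and SD (n = 6 each) and a separate vertical scale for each gene. The 12 genes were picked for display, and the 6 mice of both times do not overlap in any of them, as in 6.73% of all genes. Mt1 lies at 13.07 to 13.21 in Ctrl 7d mice and 13.37 to 13.55 in Ctrl 72h mice.

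A further 3 lists of enzymes were written out after the values were seen and are given as counts. Of all genes 5.32% fell and 67.9% lay below 0. Of 22 enzymes and carriers of mitochondrial fatty acid oxidation, 10 fell, 0 rose and 18 were below 0, with a median of -0.20 and 4 fallen members without replicate 68. Acadl, which starts the oxidation of long acyl chains, was 9.90 to 10.14 in Ctrl 7d mice and 10.29 to 10.48 in Ctrl 72h mice (-0.36, SE 0.056, adjusted p = 0.000162). Cpt2, the inner membrane carnitine transferase, fell by 0.42 (SE 0.080, adjusted p = 0.00111), and Hadhb, Hadh, Acaa2, Eci2, Decr1, Etfb, Etfdh and Acad11 by between 0.21 and 0.38. Of 9 genes of lysine breakdown 3 fell, Aass, Aldh7a1 and Gcdh, and of 20 measured glutathione transferases 4 fell, with Gstt3 furthest (-0.58, SE 0.097, adjusted p = 0.000379). Of 31 respiratory chain genes 2 fell (6.45%), Sdhc (-0.26) and Ndufb3 (-0.14), a share near the 5.32% of all genes. All 31 differences were below 0 with a median of -0.08, against -0.05 over all genes, and 0 members fell without replicate 68.

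Interferon stimulated genes had the lowest median of the 37 lists. Of 23 measured members 8 fell (34.8%, against 5.32% of all genes), 0 rose and all 23 were below 0 (67.9% of all genes), with a median of -0.46. The list mean was 6.98 to 7.22 in Ctrl 7d mice and 7.40 to 7.73 in Ctrl 72h mice, without overlap, and 3 members fell without replicate 68. In CIE mice the median was -0.25. The members that fell were Ifit1, Ifit2 and Ifit3, which bind foreign RNA, Usp18, which removes ISG15 and damps interferon signalling, Ifih1, the RNA sensor MDA5, Ifi27, Rtp4 and Xaf1.

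Promoters of 3 genes that fell are shown, Ifit1 and Ifit3 of the interferon list and B2m of the antigen presentation list, because each holds a match to an interferon motif. They run from 250 bases before to 50 after the RefSeq start (GRCm38.p6), and capitals mark matches to TTTC, any 2 bases and TTTC, the repeat of the interferon-stimulated response element, searched on both strands. Ifit1 lies at chr19:34640639-34640938 and Ifit3 at chr19:34583279-34583578, both on the plus strand, with matches beginning 104 and 85 bases before the start in Ifit1 and 156 and 122 in Ifit3. B2m lies at chr2:122147437-122147736 on the plus strand. Its 1 match is on the minus strand, and the edge of the match farthest from the start lies 139 bases before it.
Ifit1: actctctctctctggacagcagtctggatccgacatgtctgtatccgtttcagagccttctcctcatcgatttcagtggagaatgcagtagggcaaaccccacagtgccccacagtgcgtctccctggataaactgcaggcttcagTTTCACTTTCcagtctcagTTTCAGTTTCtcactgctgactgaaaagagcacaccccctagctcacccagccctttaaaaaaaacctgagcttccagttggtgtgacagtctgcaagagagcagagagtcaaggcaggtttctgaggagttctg
Ifit3: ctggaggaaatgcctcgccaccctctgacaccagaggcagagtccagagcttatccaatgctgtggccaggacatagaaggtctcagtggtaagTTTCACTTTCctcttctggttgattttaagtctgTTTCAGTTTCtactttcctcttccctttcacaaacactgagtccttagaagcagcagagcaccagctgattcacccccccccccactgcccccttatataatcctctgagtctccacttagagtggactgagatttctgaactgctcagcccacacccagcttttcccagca
B2m: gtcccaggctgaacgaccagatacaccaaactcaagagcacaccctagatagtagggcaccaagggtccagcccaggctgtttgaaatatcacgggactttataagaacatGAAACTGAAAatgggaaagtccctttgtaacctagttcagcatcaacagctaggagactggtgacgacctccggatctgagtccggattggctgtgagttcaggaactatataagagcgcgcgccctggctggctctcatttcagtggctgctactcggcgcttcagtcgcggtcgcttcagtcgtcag
Of the 18 list members with a promoter in the RefSeq table, 11 held a match (61.1%), against 524 of 14452 genes with a representative probeset (3.63%). Of the 5 list members that fell and have a promoter there, 3 held one (60%), and of all genes that fell 42 of 780 (5.38%). Fallen members thus did not hold a match more often than the whole list. The share of the list describes the kind of gene on it and not the comparison of times. A match is a description of these letters and not of a bound site.

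Ifit1 was 5.85, 6.11 and 6.22 in Ctrl 7d mice and 6.64, 7.03 and 7.23 in Ctrl 72h mice. The groups did not overlap, and the fall was 0.90 (SE 0.17, 1.86-fold, adjusted p = 0.00112). The Ctrl means in order of time were 6.96, 7.39, 6.96 and 6.06. Usp18 was 5.50 to 6.10 (median 5.77) in Ctrl 7d mice and 6.37 to 6.77 (median 6.60) in Ctrl 72h mice, with a fall of 0.81 (SE 0.16, adjusted p = 0.00115). Rtp4 was 7.28 to 7.89 (median 7.55) in Ctrl 7d mice and 7.97 to 8.66 (median 8.33) in Ctrl 72h mice (-0.79, SE 0.16, adjusted p = 0.00172). Trim30d, a tripartite motif gene of the immune-related Trim30 cluster, fell by 0.74 (SE 0.12, adjusted p = 0.000195). Each of these genes was also lower in CIE mice at 7 d, by 0.39 to 0.50, without passing there. Stat2 (-0.08) and Mx1 (-0.08) were among the 15 members that did not pass.

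Antigen presentation and complement genes were below 0 in 14 of 14 measured members (67.9% of all genes), with a median of -0.40. Of these 2 fell (14.3%, against 5.32% of all genes). B2m, the light chain of class I molecules, was 11.85, 12.04 and 12.28 in Ctrl 7d mice and 12.32, 12.55 and 12.86 in Ctrl 72h mice, without overlap (-0.51, SE 0.12, adjusted p = 0.00422). H2-K1, a class I heavy chain, was 10.22, 10.42 and 11.14 in Ctrl 7d mice and 10.87, 11.22 and 11.81 in Ctrl 72h mice. Its groups overlapped, and it fell by 0.71 (SE 0.19, adjusted p = 0.0099). Probesets of class I genes can share sequence, so H2-K1 is uncertain. Without replicate 68 neither passed.

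Microglial markers fell in 4 of 17 measured members (23.5%, against 5.32% of all genes), with 16 of 17 below 0 (67.9% of all genes) and a median of -0.32. Tyrobp, the signalling adaptor of TREM2, was 10.49, 10.66 and 11.09 in Ctrl 7d mice and 11.11, 11.19 and 11.30 in Ctrl 72h mice. The Ctrl 72h mice were narrowly grouped above all of the Ctrl 7d mice, and the fall was 0.46 (SE 0.10, adjusted p = 0.00286). Aif1 (IBA1, a marker of microglia; -0.52, SE 0.13), Tmem119 (a homeostatic microglial marker; -0.51, SE 0.12) and C1qc (a chain of complement C1q; -0.41, SE 0.10) were the others. The list mean over Ctrl times in order was 9.71, 9.52, 9.86 and 9.55, and CIE mice had 9.52 at 7 d and 9.46 at 72 h, so the list stood highest in Ctrl 72h mice among the groups of both late times. Its median difference in CIE mice was 0.02. None of the 4 genes passed without replicate 68.

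Other glial and vascular lists had fewer calls. Of 20 endothelial and mural genes all were below 0 (67.9% of all genes were). The 4 that fell (20%, against 5.32% of all genes) were Cldn5, Tek, Abcb1a and Slco1a4. Cldn5, a tight junction protein of the blood-brain barrier, was 9.27, 9.40 and 9.46 in Ctrl 7d mice and 9.66, 9.73 and 9.91 in Ctrl 72h mice, without overlap (-0.37, SE 0.071, adjusted p = 0.0012). Astrocyte markers fell in 3 of 16 (18.8%), Aldh1l1 (-0.31), Slc4a4 (-0.26) and S100b (-0.22), and oligodendrocyte genes in 2 of 18 (11.1%), Hapln2 (-0.50) and Nkx6-2 (-0.37). Without replicate 68 the fallen members numbered 1 for endothelial and mural genes, 0 for astrocytes and 0 for oligodendrocytes. Another 3 probesets of Slc4a4 were above 0 without passing. Of 12 genes of oligodendrocyte precursors and 13 of fibroblasts none passed, and Lum (-0.38, adjusted p = 0.0115) and Ogn (-0.37, adjusted p = 0.0165) were nearest among fibroblast genes. Blood cell genes (9 measured) and choroid plexus genes (16 measured) gave none.

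**Figure D3:**
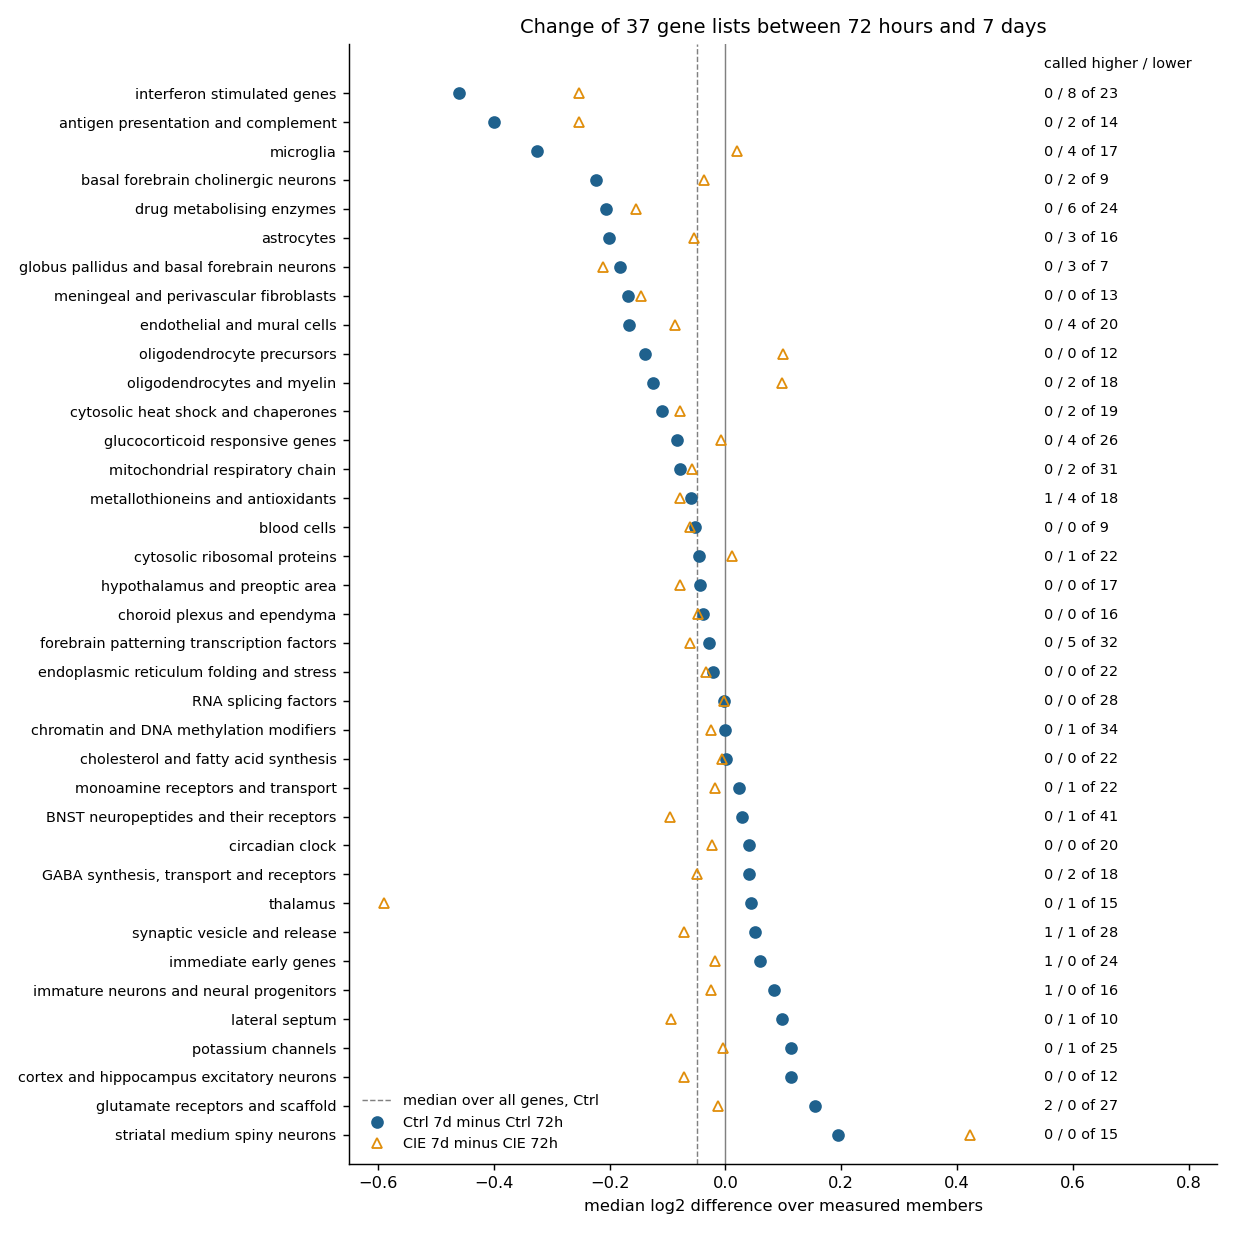
Median log2 difference over the measured members of 37 gene lists, Ctrl 7d minus Ctrl 72h (filled blue circles) and CIE 7d minus CIE 72h (open orange triangles), with the dashed line at the median over all genes in Ctrl (-0.05) and the counts of members called higher and lower in Ctrl at the right. Interferon genes stand at -0.46 in Ctrl mice and -0.25 in CIE mice, while microglial markers stand at -0.32 and 0.02.

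Several genes of basal forebrain territories fell. Gbx1, a homeobox gene and 1 of the 15 largest falls, was 7.41, 7.53 and 7.99 in Ctrl 7d mice and 8.03, 8.52 and 8.87 in Ctrl 72h mice. The ranges came close without overlapping, and the fall was 0.92 (SE 0.17, 1.89-fold, adjusted p = 0.000867). Lhx8, a LIM factor of cholinergic neuron development, was 9.21 to 9.84 in Ctrl 7d mice and 9.87 to 10.38 in Ctrl 72h mice (-0.65, SE 0.16, adjusted p = 0.00653). Lhx6, which specifies interneurons of the medial ganglionic eminence, fell by 0.51 (SE 0.11, adjusted p = 0.00271), and its second probeset differed by 0.03 (adjusted p = 0.933). Ngfr, the p75 neurotrophin receptor of basal forebrain cholinergic neurons, fell by 0.83 (SE 0.20, adjusted p = 0.0047). Its other probesets had -0.05 and -0.27 and did not pass.

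Mab21l1, a developmental gene, had the largest fall among genes that passed, 1.22 (SE 0.25, 2.33-fold, adjusted p = 0.0022). It ranged from 5.90 to 7.79 (median 6.66) in Ctrl 7d mice and from 7.78 to 8.36 (median 8.00) in Ctrl 72h mice, so 1 Ctrl 7d mouse reached the Ctrl 72h range. Skor1, a transcriptional corepressor, was 5.57 to 6.61 (median 5.98) in Ctrl 7d mice and 6.64 to 7.52 (median 7.06) in Ctrl 72h mice (-1.07, SE 0.21, adjusted p = 0.00138). In CIE mice these differences were 0.49 for Mab21l1, 0.25 for Skor1 and 0.03 for Gbx1. Mab21l1 was at 6.71 ± 0.34 in CIE mice at 72 h (SD, n = 6) and Gbx1 at 7.59 ± 0.29, near their Ctrl 7d means of 6.78 and 7.58.

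By list, against 5.32% of all genes, 5 of 32 forebrain patterning factors fell (Mab21l1, Lhx8, Lhx5, Lhx6 and Meis1), 3 of 7 markers of pallidum and basal forebrain (Gbx1, Syt2 and Lhx6) and 2 of 9 cholinergic markers (Ngfr and Lhx8). Genes of the cholinergic transmitter itself did not pass, with Chat (acetylcholine synthesis) at -0.22 (adjusted p = 0.141), Slc18a3 (its vesicular transporter) at -0.50 (adjusted p = 0.0218) and Slc5a7 (choline uptake) at -0.13 (adjusted p = 0.542). Isl1, a LIM factor on the cholinergic list, lay the other way at 0.44 (SE 0.14, adjusted p = 0.0263), and its dimmer probeset was called higher (0.55, adjusted p = 0.00872). Pvalb, a pallidal and interneuron marker, had 0.43 (SE 0.40, adjusted p = 0.535) and Nkx2-1, a pallidal patterning factor, -0.01. Without replicate 68 the counts were 0, 1 and 0 for the 3 lists. The median of the pallidum and basal forebrain list was -0.18 by brightest probeset and -0.005 with the probesets of each gene averaged. That of the cholinergic list was -0.22 either way. Other probesets of Syt2 had -0.27 and -0.105 and did not pass. Striatal markers were above 0 in 15 of 15 measured members, where 67.9% of all genes lay below 0, and none passed. Their list mean was 9.51 to 10.90 in Ctrl 7d mice and 9.81 to 10.29 in Ctrl 72h mice. Thalamic markers fell in 1 of 15 (6.67%, Cbln1) and septal markers in 1 of 10 (10%, Mab21l1). Hypothalamic (0 of 17) and cortical (0 of 12) markers gave none.

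Lists of neurotransmitter and peptide genes held at most 2 called members each, where 0.445% of all genes were called higher and 5.32% lower. Of 41 BNST peptides and receptors 1 fell, Avpr1a (vasopressin receptor; -0.60, SE 0.14, adjusted p = 0.00496), and Crh, the stress peptide, was 9.88 to 10.66 in Ctrl 7d mice and 9.52 to 10.13 in Ctrl 72h mice (0.44, SE 0.20, adjusted p = 0.121). Of 27 glutamate receptor and scaffold genes 2 rose, Grin2b (NMDA receptor subunit; 0.44, SE 0.12, adjusted p = 0.00913) and Gria3 (AMPA receptor subunit; 0.35, SE 0.090, adjusted p = 0.00826). Each passed in 3 of the 12 fits with 1 mouse left out, and neither without replicate 68. Another Gria3 probeset rose by 0.90 (adjusted p = 0.00384), whereas the 3 other Grin2b probesets had 0.06, 0.02 and 0.16 and did not pass. Of 18 GABA genes 2 fell, Slc6a11 (GAT3, a GABA transporter of astrocytes; -0.52) and Gabrb2 (a GABA-A subunit; -0.31), although a dimmer Gabrb2 probeset stood at 0.44 (adjusted p = 0.0897). Kcnd3 (-0.22) was the 1 of 25 potassium channels and Maob (-0.24) the 1 of 22 monoamine genes that passed. Syt2 (-0.65) and Stx1a (0.30) were the 2 of 28 genes of vesicle release. Without replicate 68 the channel, monoamine and vesicle lists had 0 called members. With 1 mouse left out, Kcnd3 passed in 2 of the 12 fits, Maob and Stx1a in 3 and Syt2 in 4. A dimmer Kcnd3 probeset stood at 0.51 (adjusted p = 0.181). Dcx, a microtubule protein of young neurons, rose by 0.63 (SE 0.17, adjusted p = 0.00977), and was the 1 of 16 progenitor genes. It passed in 2 of the 12 fits with 1 mouse left out, and its 3 other probesets had 0.04, 0.21 and 0.15 and did not pass.

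Calls among stress readouts varied by list, and the clock list gave none. Of 26 glucocorticoid responsive genes 4 fell (15.4%, against 5.32% of all genes), Mt1, Mt2, Cebpd (-0.40) and Cables1 (-0.28). The standard targets did not pass. Fkbp5, a glucocorticoid receptor co-chaperone, had 0.21 (adjusted p = 0.0628), Tsc22d3 (GILZ) -0.19 (adjusted p = 0.104) and Sgk1, a kinase, 0.09 (adjusted p = 0.705). None of 20 clock genes passed, with Per1 at 0.07 and Dbp at 0.09. Of 24 immediate early genes 1 rose, Jund (0.27), and Fos had -0.13 (adjusted p = 0.62). Jund passed in 2 of the 12 fits with 1 mouse left out and did not pass without replicate 68. Its other probeset had -0.15 (adjusted p = 0.236). Among chaperones 2 of 19 fell (10.5%), Bag3 (-0.54) and Hspe1 (-0.18), with 18 of 19 below 0 (67.9% of all genes). Among 22 genes of endoplasmic reticulum folding none passed. Ribosomal proteins (1 of 22, Rps6), chromatin modifiers (1 of 34, Smarce1), splicing factors (0 of 28) and cholesterol synthesis (0 of 22) gave few calls.

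The largest rise among genes that passed was that of 9630013A20Rik, a long noncoding RNA also named lncOL1 in RefSeq and known from oligodendrocyte development, at 6.41, 7.42 and 7.86 in Ctrl 7d mice and 5.69, 6.08 and 6.40 in Ctrl 72h mice. It did not overlap, rose by 1.27 (SE 0.19, 2.41-fold, adjusted p = 9.2e-05), and 2 further probesets rose with it. Its Ctrl means in order of time were 7.28, 7.33, 6.07 and 7.34, so Ctrl 72h stood below the other 3, whereas CIE mice were at 6.37 at 7 d and 6.36 at 72 h. Tenm3, a teneurin of synaptic wiring, was 10.52, 10.74 and 11.08 in Ctrl 7d mice and 9.72, 10.05 and 10.41 in Ctrl 72h mice (0.71, SE 0.13, adjusted p = 0.000678). Pde1a, a calmodulin-dependent phosphodiesterase, was 9.71, 10.02 and 10.47 in Ctrl 7d mice and 8.29, 9.13 and 9.55 in Ctrl 72h mice (1.02, SE 0.24, adjusted p = 0.00511), although its second probeset had -0.11 (adjusted p = 0.202). Dlgap2 (postsynaptic scaffold; 0.98), Csmd1 (a complement control protein of neurons; 0.90), Ipw (a noncoding RNA of the imprinted Prader-Willi region; 1.00), Gprin3, Fam81a, Thoc2l, Arhgap32, Rbfox2, Syt10, Dpf1, Bcr and 6820431F20Rik were the rest of the 15 largest. Other probesets of Rbfox2 (0.05, 0.02 and 0.03), Csmd1 (0.18, 0.24 and 0.01), Gprin3 (0.29) and Dpf1 (0.45) did not pass. Nor did those of Arhgap32 (-0.04 and -0.11) and Bcr (0.14 and -0.03). With 1 mouse left out, Dlgap2, Gprin3, Fam81a, Arhgap32, Rbfox2 and Dpf1 passed in 4 of the 12 fits. Syt10 passed in 5, Pde1a, Csmd1, 6820431F20Rik and Thoc2l in 6, Ipw in 8, Bcr in 9, and 9630013A20Rik and Tenm3 in all 12. With the Malat1 level as a covariate, 9630013A20Rik passed (adjusted p = 0.00105) and the other 14 did not, with Tenm3 (adjusted p = 0.132) nearest.

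**Figure D4:**
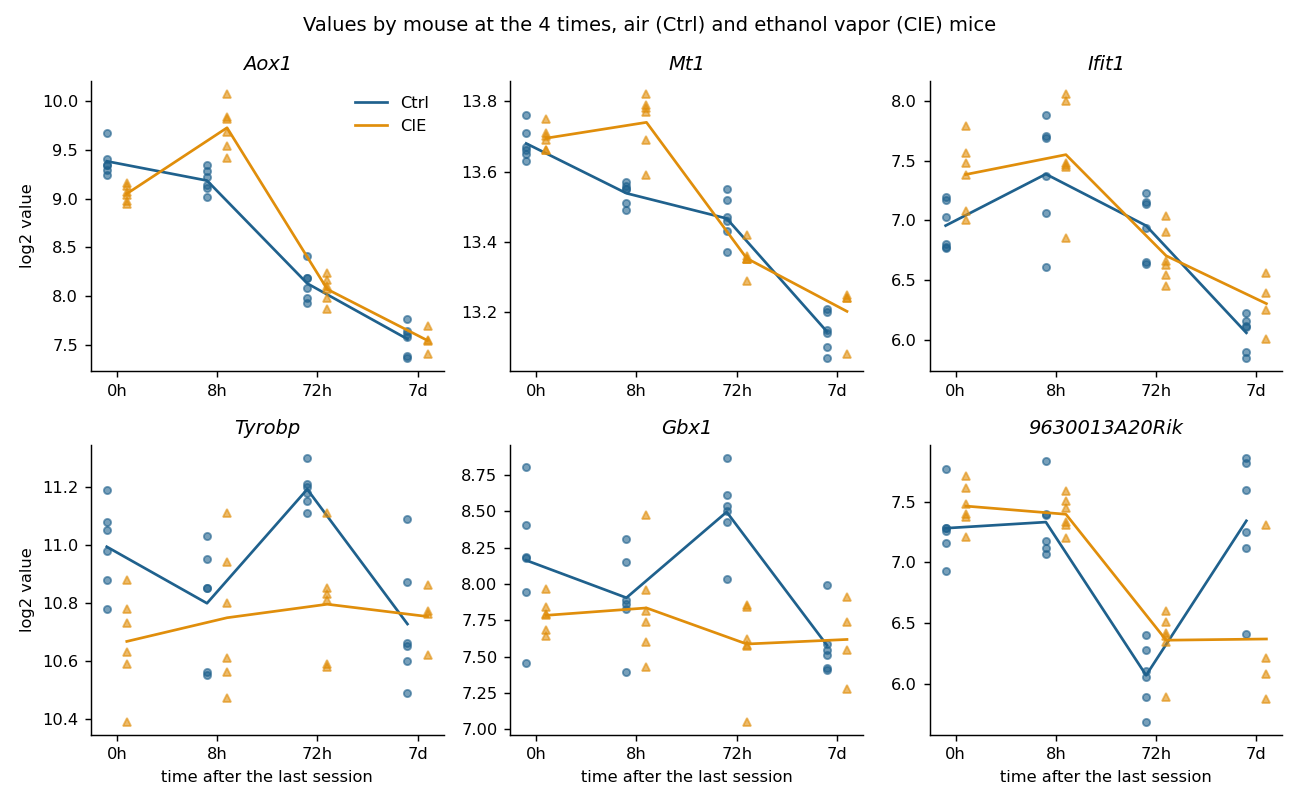
Log2 values of 6 genes in each Ctrl mouse (blue circles) and CIE mouse (orange triangles) at 0 h, 8 h, 72 h and 7 d, with lines through the group means and a separate vertical scale for each gene. Aox1 falls over the 3 later times in both treatments, and Tyrobp, Gbx1 and 9630013A20Rik differ between 7 d and 72 h by -0.46, -0.92 and 1.27 in Ctrl mice and by -0.04, 0.03 and 0.01 in CIE mice.

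CIE mice gave the same comparison in other animals. The mean of the Malat1 probesets was 8.97 to 9.285 in CIE 7d mice and 7.84 to 8.96 in CIE 72h mice. On the first principal component they lay at 0.091 to 0.15 and -0.311 to 0.0922. Both pairs thus moved the same way in these levels, and their part in the shared signs was not tested. In CIE mice the test called 1 probeset (0.00222%) and 6428 had an unadjusted p under 0.05 (14.3%). Of the 968 genes that fell in Ctrl mice, 909 (93.9%) were below 0 in CIE mice with a median of -0.13, against 76% of all genes below 0 in Ctrl mice. Of the 81 that rose, 74 (91.4%) were above 0 with a median of 0.19, against 53% of all genes above 0 in Ctrl. The change in Ctrl mice minus that in CIE mice passed for 0 probesets, with 2542 at an unadjusted p under 0.05 (5.64%), so no gene was shown to change differently between treatments. The smallest p values for it belonged to Tlcd4 (0.05 in Ctrl and -0.36 in CIE), 9630013A20Rik, Mab21l1, Acadl, Cbx8, Trak2, Skor1, Medag, Pdlim2 and Sez6l, each with an adjusted p of 0.542.

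**Figure D5:**
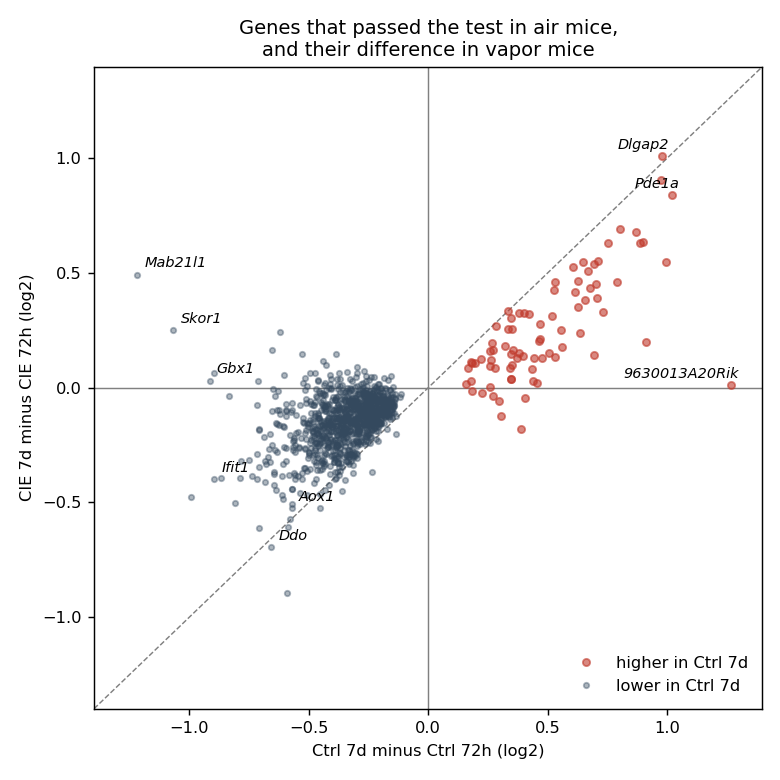
Difference from 72 h to 7 d in CIE mice (vertical, log2) against that in Ctrl mice (horizontal, log2) for the 1049 genes that passed in Ctrl mice, with those that rose in red, those that fell in dark and a dashed line of equal differences. Of the fallen genes 909 of 968 lie below 0 in CIE mice, while Ddo and Aox1 lie near the line and Mab21l1 and Skor1 lie above 0.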

How the data were processed

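The deposited values are log2 probeset intensities made by the authors with RMA, quantile normalization within hybridization batches and again over all arrays, and ComBat for batch. Versions, the batch of each array and within-batch values are not given in the sources used here, and repeated quantile normalization hides a shift common to most genes. Signal over background was not given, so the number of mice limits precision. Groups came from the labels of treatment and time. Using limma (version 3.58.1; R version 4.3.3), 1 linear model with a mean for each of 8 groups covered the 46 arrays, and moderated two-sided tests were adjusted by Benjamini-Hochberg over 45037 probesets, with a threshold of 0.01. All adjusted p values are from this fit or a named alternative. On data simulated at these spreads, with independent noise for each probeset, it recovered 82% of differences of 0.5 and 100% of 1. The simulation left out variation shared across probesets, so it does not describe the test on these arrays. Of the probesets 34945 had 1 symbol, and a gene's brightest one represented it. Genes named were the 15 largest called in each direction, up to 4 called members of each of 37 lists (742 of 830 members measured) or else the 2 smallest p, 14 fixed genes, the 10 whose change differed between treatments at the lowest p, and others where said. Members and lists were chosen with earlier results of these data known. Promoters are from RefSeq (GRCm38.p6). Alternatives were the arrays fitted, array weights, aligned medians, the variance prior, a minimum mean of 6, a threshold of 0.05, each mouse left out, and 2 covariates chosen after seeing the data.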

Additional observations from a re-analysis of the deposited data

Results flagged for a closer look

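Among the 118 named genes and the groups of 6 air mice, 236 groups were checked for a mouse standing apart from the other 5 and 13 were flagged (5.51%), where chance flags about 1 in 20. Of these, 5 involve Ctrl 72h replicate 68, which was lowest for Dlgap2 (6.15, next 6.89) and highest for Tbr1 (7.67, next 7.45), Rarres2 (8.11, next 7.96), Slc6a11 (10.72, next 10.43) and Smarce1 (9.25, next 9.10). Ctrl 72h replicate 24 was high for Tmem215 (6.80, next 5.89) and Tlcd4 (9.68, next 9.53) and low for Slco1a4 (10.60, next 10.76) and Pdlim2 (10.05, next 10.28). Ctrl 7d replicate 46 was high for Gbx1 (7.99, next 7.59) and Sdhc (10.30, next 10.11). Ctrl 7d replicate 80 was high for Tlcd4 (9.78, next 9.55) and Ctrl 72h replicate 52 low for Aif1 (8.85, next 8.99).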

How the results depend on the processing

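The 1049 genes and 2323 probesets called in Ctrl mice became 299 and 563 when the 24 Ctrl arrays alone were fitted, 1637 and 3840 with array weights, 2923 and 6942 at a threshold of 0.05, 5 and 12 with the Malat1 covariate and 22 and 36 with that of Hcrt and Pmch. Leaving out each mouse gave 172 to 1223 genes and 315 to 2599 probesets. Fitting both groups alone, aligning medians, the other variance prior and the minimum mean of 6 kept these counts within 1.5 times. In CIE mice the 1 probeset called became 0 with only its groups fitted, 97 with array weights, 13 with the minimum mean, 71 at 0.05, 9 with the Hcrt and Pmch covariate and 0 to 9 with mice left out, and with the Malat1 covariate another probeset was called in its place. The difference between treatments stayed at 0 in each of these. Of 78 named genes that passed, 0 changed sign, 23 passed with the Ctrl arrays alone, 22 without Ctrl 72h replicate 68 and 3 with the Malat1 covariate. Of the 78 called genes 46 had further probesets, 9 with another called the same way, 0 with one called the opposite way and 12 with one of opposite sign that did not pass. Of the 40 named but not called, 23 had further probesets, and in Dnajc3 (0.50) and Sfpq (0.59) 1 was called against the sign of the brightest (-0.17 and -0.10). The cause of these shifts was not tested. No paired analysis was possible because each mouse has its own number and the groups share none.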
